A study of Homo sapiens with 30 samples.

Results

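The comparison holds 6 libraries of A673 cells: 3 made after 20 days in 5 nM BMS-986158, set against 3 made after 3 days (72 hours) in the same dose, out of 30 libraries in the series. They were chosen by their column names, which give line, time, treatment and replicate. A673 is an Ewing sarcoma line with the genotype label EWS::FLI1, the fusion of EWSR1 with the transcription factor FLI1, and all groups described here carry it. The libraries used beside them were 3 of A673 after 20 days and 3 after 3 days in the solvent DMSO (vehicle), and 3 of CHLA10, another EWS::FLI1 line, at each time in 5 nM BMS-986158. Cells labelled 20 days stayed in the inhibitor without a break, with splitting at confluence and a change of medium and drug every 72 hours while static. They are thus the cells that remained after 20 days, and fewer cells of a kind cannot be told apart from less RNA per cell. How long the 20-day vehicle cells were in vehicle is not given, and CHLA10 was grown in another medium, so line and medium cannot be told apart. The labels do not say whether the 3 replicates of a group came from separate cultures. The spread behind each p-value is that between libraries and may be technical.

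BMS-986158 blocks the bromodomains of BET proteins, which bind acetylated histones and help RNA polymerase II to elongate through genes such as MYC. In Ewing sarcoma, EWS::FLI1 activates genes at GGAA repeats and represses others, many of them genes of a mesenchymal, adherent state. Cells with low EWS::FLI1 activity are known to spread, build actin stress fibres and express targets of YAP and TAZ, co-activators that work with TEAD factors. Focal adhesion kinase (FAK, encoded by PTK2) signals from integrins, the receptors that hold a cell to its matrix, and the series title concerns dependency on FAK under BET inhibition.

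Poly(A) RNA was sequenced, and the files give read counts per gene, from 17.4 to 20.8 M (M, 1000000) counts in the 20-day BMS-986158 libraries and from 17.4 to 48.9 M in the 3-day ones. Of the 20-day BMS-986158 libraries, replicate 3 stood apart: the SD of its log2 difference from the other members of its group was 0.738, against 0.507 and 0.569 for replicates 1 and 2 and 0.367 to 0.445 in the 3-day group. On the first principal component of the A673 libraries (54% of variance) it lay at -57.25, between replicates 1 and 2 (-88.37 and -93.21) and the 3-day BMS-986158 libraries (-33.1 to -28.33). In vehicle, replicate 3 of the 3-day group stood apart in the same way (0.684) and lay at 49.87, beside the 20-day vehicle libraries (30 to 51.32), while the other 3-day vehicle libraries lay at 73.44 and 74.81. Reads of mitochondrially encoded genes were 2.03 to 3.58% of counts at 20 days, against 2.83 to 4.82% at 3 days in BMS-986158. All 10 Ewing sarcoma markers were detected, with a summed level of 3503 to 3997 CPM (counts per 1000000 counts of the whole library) at 20 days, against 4395 to 4489 CPM at 3 days. Markers of leukocytes, endothelium, skeletal muscle and melanocytes summed to at most 8.69 CPM in any of the 6 libraries, with PTPRC, CD3E and LYZ at 0 in both groups. The 8 fibroblast markers summed to 1335 to 2970.0 CPM at 20 days, against 570.5 to 601.9 CPM at 3 days, with 3 of 8 called higher (COL1A1, COL1A2 and COL3A1) and 1 lower (THY1), and with DCN and LUM at 0 in both groups. The 8 epithelial markers summed to 122 to 589 CPM at 20 days, against 109.5 to 113.9 CPM at 3 days, with the keratins KRT8 and KRT18 called higher and KRT14 at 0 in both groups. The part that other cells have in any result was not tested.

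Between 3 and 20 days in BMS-986158, more members rose than fell in the lists of matrix, integrin and YAP/TAZ-TEAD genes, and more fell than rose among HOX genes and genes that EWS::FLI1 activates. In edgeR's quasi-likelihood test at a Benjamini-Hochberg adjusted p under 0.05 ("called"), 1890 of 16713 genes tested (11.3%) rose and 1489 (8.91%) fell, 20.2% in all. Of these, 530 (3.17% of genes tested) rose and 616 (3.69%) fell at least 2-fold. Rising genes made up 55.9% of the calls with TMM scaling, 45.3% with upper-quartile scaling and 38.2% with library size alone, which moved the median log2 change of all genes from -0.001 to -0.062 and to -0.1. Leaving out 20-day replicate 3 gave 2572 genes that rose and 2302 that fell, while leaving out replicate 1 of the same group gave 1051 and 692, and replicate 2 gave 1126 and 801. Of the 108 genes named with a value below, 92 were called, and in 91 of those the 3 libraries at 20 days did not overlap the 3 at 3 days, which the naming rule fixed for some of them. The exception was HDAC9. Over all genes the groups did not overlap for 86.9% of those called and 34.3% of those tested.

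The 10 genes that rose most, among called genes with a mean log2 CPM of at least 2 and non-overlapping groups, include genes of matrix, surface and cytoskeletal proteins. LOX, the lysyl oxidase that cross-links collagen and elastin (GRCh38 chr5:122063195-122078360, minus strand), had 321, 419 and 33.2 CPM at 20 days, against 3.24, 3.11 and 3.5 CPM at 3 days (log2 change 6.28, SE 0.67, adjusted p = 2.39e-06). THBS1, which codes for the matricellular protein thrombospondin, had 122, 177 and 13.2 CPM at 20 days, against 1.08, 1.95 and 1.46 CPM at 3 days (log2 change 6.10, SE 0.86, adjusted p = 4.87e-05). NT5E, the ecto-nucleotidase CD73 of mesenchymal cells (chr6:85449584-85495791, plus strand), had 425, 473 and 80.1 CPM at 20 days, against 7.27, 8.01 and 7.98 CPM at 3 days (log2 change 5.39, SE 0.60, adjusted p = 3.64e-06). In each of these, 20-day replicate 3 was far below replicates 1 and 2 and still above every 3-day library. Vehicle libraries were lower, with 19.1, 5.58 and 5.38 CPM at 20 days and 4.3, 3.87 and 3.24 CPM at 3 days in vehicle for LOX, and 13.4, 6.6 and 6.88 CPM at 20 days and 11.2, 7.82 and 3.66 CPM at 3 days in vehicle for NT5E. TNXB, which codes for the matrix protein tenascin-X, had 389.9, 322 and 36.8 CPM at 20 days, against 5.23, 6.34 and 8.12 CPM at 3 days (log2 change 5.22, SE 0.55, adjusted p = 1.93e-06); it has a partial copy, TNXA, so its counts are uncertain. CD44, the receptor for hyaluronan, had 329, 294 and 34.2 CPM at 20 days, against 8.64, 8.09 and 9.68 CPM at 3 days (log2 change 4.63, SE 0.68, adjusted p = 6.71e-05). The cell adhesion molecule L1CAM had 266, 331 and 55.9 CPM at 20 days, against 9.09, 11.2 and 10.6 CPM at 3 days (log2 change 4.40, SE 0.57, adjusted p = 1.87e-05). The same order of libraries held in these, with replicate 3 the lowest at 20 days. S100A4, a calcium-binding protein of motile cells, had 126, 129 and 23.1 CPM at 20 days, against 5.29, 4.62 and 4.35 CPM at 3 days (log2 change 4.29, SE 0.43, adjusted p = 5.16e-07). EPAS1, the hypoxia-inducible factor HIF-2 alpha, had 689, 935 and 172 CPM at 20 days, against 35, 38 and 38 CPM at 3 days (log2 change 4.01, SE 0.42, adjusted p = 1.97e-06). PDLIM1, a LIM protein of actin stress fibres, had 44.2, 52.2 and 8.41 CPM at 20 days, against 2.16, 1.83 and 2.49 CPM at 3 days (log2 change 3.999, SE 0.56, adjusted p = 2.57e-05). CCN2, the connective tissue growth factor and a YAP target, had 760.5, 888 and 107 CPM at 20 days, against 38.4, 37.4 and 42.2 CPM at 3 days (log2 change 3.89, SE 0.75, adjusted p = 0.000973). Without replicate 3 the log2 changes of these 10 genes were larger, from 4.39 for CCN2 to 6.80 for LOX, and all 10 stayed called.

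**Figure D1:**
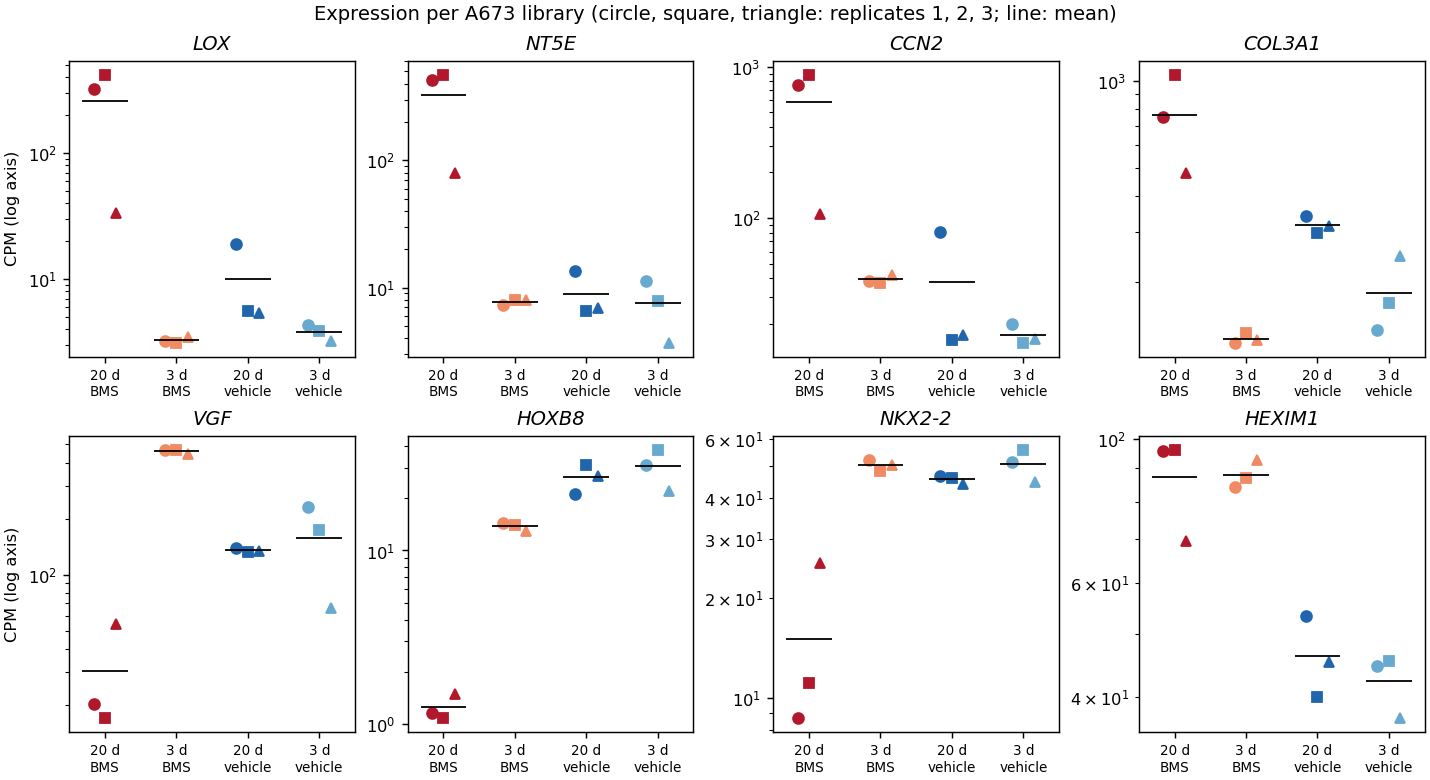
CPM (log axis) of 8 genes in each A673 library, with 20-day and 3-day BMS-986158 (BMS) and then 20-day and 3-day vehicle from left to right; symbols are replicates and lines are group means. LOX, NT5E, CCN2 and COL3A1 are high in 20-day BMS-986158 with replicate 3 the lowest of its group, VGF, HOXB8 and NKX2-2 are low there, and HEXIM1 is about as high at 20 as at 3 days.

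The genes that fell most include peptides, receptors and developmental regulators. TPSB2 and TPSAB1, which code for mast cell tryptases, had 1.06, 0.826 and 1.93 CPM at 20 days, against 31.6, 25.6 and 23.1 CPM at 3 days for TPSB2, and 0.953, 1.08 and 2.78 CPM at 20 days, against 32.2, 34 and 29.7 CPM at 3 days for TPSAB1 (-4.37 ± 0.63 and -4.30 ± 0.70, log2 change ± SE). These 2 genes are near-identical copies and their counts cannot be relied on one by one. VGF, a secreted neuroendocrine peptide precursor (chr7:101162509-101165593), had 20.1, 16.9 and 54.2 CPM at 20 days, against 469, 466 and 443 CPM at 3 days (log2 change -3.91, SE 0.51, adjusted p = 1.96e-05). HOXB8, a patterning transcription factor (chr17:48611377-48614939), had 1.17, 1.08 and 1.5 CPM at 20 days, against 14.3, 14.1 and 12.9 CPM at 3 days (log2 change -3.45, SE 0.31, adjusted p = 4.47e-08). Both were lower in every 20-day library, HOXB8 with little spread and VGF with replicate 3 the highest. NPY5R, a receptor of neuropeptide Y, had 0.582, 1.14 and 2.36 CPM at 20 days, against 14.8, 12.9 and 13.1 CPM at 3 days (log2 change -3.31, SE 0.39, adjusted p = 3.22e-06). EGR2, a zinc finger factor of the immediate early class, had 2.59, 1.02 and 3.48 CPM at 20 days, against 16.9, 16.6 and 20.7 CPM at 3 days (log2 change -2.91, SE 0.38, adjusted p = 1.44e-05). ELN, which codes for elastin, had 5.93, 3.05 and 10.5 CPM at 20 days, against 41.7, 51.7 and 50.1 CPM at 3 days (log2 change -2.87, SE 0.46, adjusted p = 0.000171). Elastin thus fell while its cross-linking enzyme LOX rose. TNNT1, the slow skeletal troponin T, had 2.81, 3.05 and 2.36 CPM at 20 days, against 17.3, 18.1 and 18.7 CPM at 3 days (log2 change -2.72, SE 0.37, adjusted p = 1.87e-05). SEMA6B, a membrane semaphorin, had 4.98, 3.5 and 8.51 CPM at 20 days, against 30.9, 39.5 and 34.7 CPM at 3 days (log2 change -2.62, SE 0.24, adjusted p = 8.73e-08). NEU4, a sialidase, had 1.48, 1.65 and 2.78 CPM at 20 days, against 10.2, 12.7 and 11.2 CPM at 3 days (log2 change -2.52, SE 0.21, adjusted p = 9.47e-09). For TNNT1 the 20-day libraries lay close together, while for NEU4 replicate 3 was above the other two, and both genes were lower in every 20-day library. Vehicle cells had far more of SEMA6B and NEU4, with 125, 160.1 and 154 CPM at 20 days and 122, 131 and 146 CPM at 3 days in vehicle for SEMA6B, and 78.7, 99.9 and 88.9 CPM at 20 days and 93.8, 105 and 63.9 CPM at 3 days in vehicle for NEU4.

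Of the gene lists, the targets of YAP/TAZ and TEAD had the highest share of members that rose. In this list 17 rose and 0 fell of 25 tested (68% rose, beside 11.3% of all genes), with a median log2 change of 1.14 beside -0.001 over all genes. ANKRD1, a cardiac ankyrin repeat protein and a direct YAP target, had 62.3, 69.7 and 3.05 CPM at 20 days, against 0.682, 0.637 and 0.344 CPM at 3 days (log2 change 6.47, SE 1.21, adjusted p = 0.000777). With limma-voom its log2 change was 5.50 and its adjusted p 0.0978, so the call is lost there. TGFB2, a ligand of the TGF-beta family, had 32.7, 47.9 and 3.32 CPM at 20 days, against 0.625, 0.438 and 0.506 CPM at 3 days (log2 change 5.75, SE 0.85, adjusted p = 8.29e-05). AXL, a receptor tyrosine kinase linked to drug tolerance, had 13.7, 9.21 and 1.55 CPM at 20 days, against 0.625, 1.08 and 1.09 CPM at 3 days (log2 change 3.08, SE 0.55, adjusted p = 0.000275). All of them show the 2 high replicates and the lower replicate 3. The other members that rose were NT5E and CCN2, given above, and CCN1, FSTL1, MYOF, CRIM1, RBMS3, LATS2, DLC1, AJUBA, AMOTL2, ARHGEF17, and the co-activator and factor themselves, WWTR1 (TAZ) and TEAD1. The list's median level was 6.74, 6.78 and 6.33 at 20 days, against 5.4, 5.42 and 5.4 at 3 days (log2 CPM), and 18 members rose and 0 fell without replicate 3. TEAD factors bind GGAATG, read as CATTCC on the other strand. RefSeq promoter windows, from 250 bases before to 50 after the start site on GRCh38.p14, matched 12 of the 17 members that rose, and 4 of the 12 hold the motif. The 3 with matches before the start site are ANKRD1 on the minus strand of chr10:90921088-90921337, TGFB2 on the plus strand of chr1:218345086-218345335 and CCN2 on the minus strand of chr6:131951373-131951622. Their 250 bases before the start site are shown 5′ to 3′ because these genes rose together and their promoters are where TEAD binding would be looked for, with matches in capitals.
ANKRD1: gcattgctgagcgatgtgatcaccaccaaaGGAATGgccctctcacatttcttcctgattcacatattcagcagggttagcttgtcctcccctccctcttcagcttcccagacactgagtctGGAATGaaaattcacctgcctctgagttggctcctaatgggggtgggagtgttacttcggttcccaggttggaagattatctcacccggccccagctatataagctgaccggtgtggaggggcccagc
TGFB2: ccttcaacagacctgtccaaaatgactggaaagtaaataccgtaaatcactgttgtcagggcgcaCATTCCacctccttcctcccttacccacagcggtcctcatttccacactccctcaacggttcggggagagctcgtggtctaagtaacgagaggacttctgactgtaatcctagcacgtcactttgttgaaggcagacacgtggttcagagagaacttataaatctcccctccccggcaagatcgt
CCN2: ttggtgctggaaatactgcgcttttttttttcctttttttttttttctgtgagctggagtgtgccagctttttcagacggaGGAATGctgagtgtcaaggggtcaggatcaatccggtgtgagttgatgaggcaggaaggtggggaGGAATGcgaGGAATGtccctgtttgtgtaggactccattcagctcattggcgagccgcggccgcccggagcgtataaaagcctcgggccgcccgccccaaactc
The matches begin 220 and 128 bases before the start site in ANKRD1, 185 before in TGFB2, and 169, 104 and 95 before in CCN2. The fourth, LATS2, has its match 10 bases after the start. The motif was in 7 of the 19 list members' windows (36.8%), members that did not rise included, so it did not mark those that rose. It was in 16.4% of windows of genes that rose at least 2-fold, 8.39% of those that fell at least 2-fold and 11% of all 12544 windows. A match is a description of letters, not of binding.

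Among targets that EWS::FLI1 is known to repress more rose than fell, and among those it is known to activate more fell than rose. Of the repressed targets 13 rose and 1 fell of 22 tested (59.1% rose), with a median log2 change of 1.36. Their median level was 7.37, 7.35 and 5.18 at 20 days, against 3.75, 3.62 and 3.69 at 3 days (log2 CPM), with replicate 3 midway. LOX, THBS1, NT5E, CD44 and CCN2 of the highest risers are in this list, which shares 3 members with the mesenchymal list and 4 with the YAP list, so the lists are not independent. Of the activated targets 2 rose and 12 fell of 29 tested (41.4% fell, beside 8.91% of all genes), with a median of -0.29. NPY1R, a receptor of neuropeptide Y, had 32.9, 36.2 and 38.6 CPM at 20 days, against 182, 173 and 174 CPM at 3 days (log2 change -2.30, SE 0.23, adjusted p = 5.46e-07). NKX2-2, a homeobox repressor used to diagnose Ewing sarcoma, had 8.68, 11.1 and 25.4 CPM at 20 days, against 52, 48 and 50.3 CPM at 3 days (log2 change -1.73, SE 0.26, adjusted p = 6.65e-05). NR0B1, GLI1, SOX2, PRKCB and EZH2 also fell. In vehicle NR0B1 had 153, 156 and 151 CPM at 20 days and 331, 321 and 134 CPM at 3 days (unscaled totals). It was thus lower at 20 days there too, except against 3-day replicate 3. LOX stands in both lists, which conflict for this gene, so its place among activated targets is uncertain. Together with TSPAN12 it is what rose among activated targets. Neither FLI1 (log2 change -0.07, not called), whose counts may include reads of the fusion transcript's FLI1 part, nor CD99 (-0.17, not called), the surface antigen of the tumour, passed the test. Median levels of the activated list were 5.56, 5.43 and 6.08 at 20 days, against 6.29, 6.23 and 6.21 at 3 days (log2 CPM), where replicate 3 was close to the 3-day libraries. Of the activated list, 7 fell without 20-day replicate 1 or 20-day replicate 2.

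**Figure D2:**
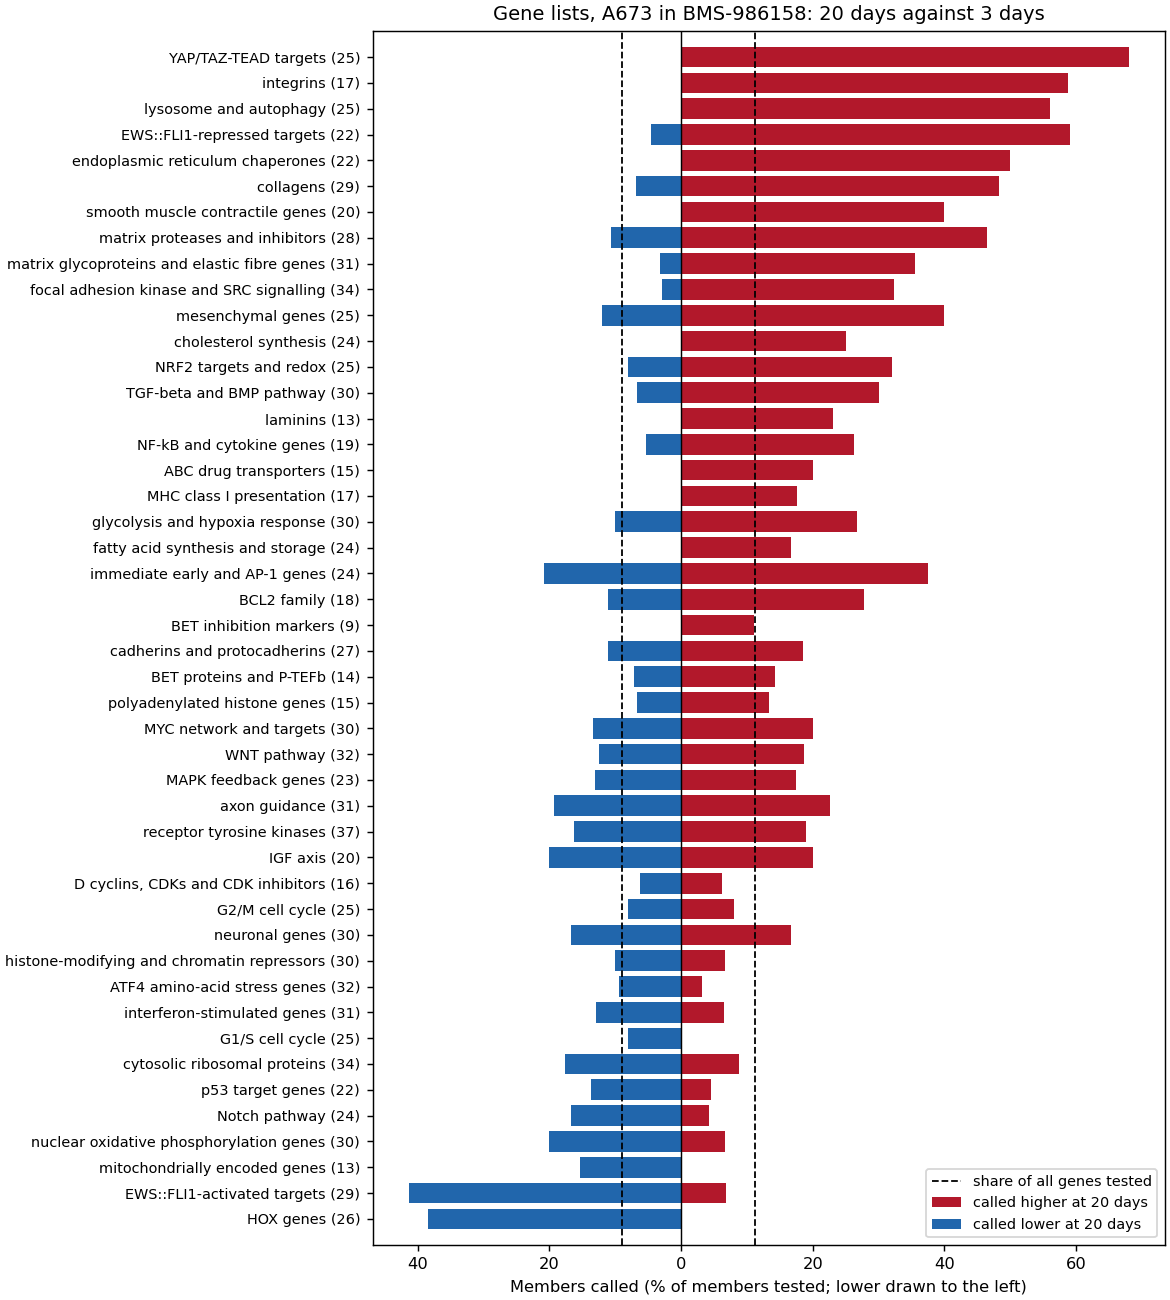
Share of the tested members of each of 46 gene lists (number tested in brackets) called higher (right) or lower (left, drawn as positive percentages) at 20 against 3 days in BMS-986158; dashed lines mark the shares over all genes, 11.3% and 8.91%. YAP/TAZ-TEAD targets and EWS::FLI1-repressed targets have the highest shares that rose, and EWS::FLI1-activated targets and HOX genes the highest that fell.

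Most of the integrins tested and 11 genes of FAK and SRC signalling rose, while the message of FAK itself did not pass the test. PTK2 had 170.0, 153 and 171 CPM at 20 days, against 190.0, 175 and 182 CPM at 3 days (log2 change -0.14, SE 0.09, adjusted p = 0.265). Each 20-day library was slightly below each 3-day library, and such separation was seen for 34.3% of all genes tested. Of the integrins 10 rose and 0 fell of 17 tested (58.8% rose), with a median of 0.85. ITGA4, a fibronectin and VCAM receptor subunit, had 18.5, 16.8 and 8.03 CPM at 20 days, against 2.22, 2.51 and 3.44 CPM at 3 days (log2 change 2.38, SE 0.42, adjusted p = 0.000231). Both ITGB3 and ITGB8, which pair with ITGAV and can activate latent TGF-beta, were low. ITGB3 had 1.8, 1.84 and 0.321 CPM at 20 days, against 0.227, 0.159 and 0.182 CPM at 3 days (log2 change 2.78, adjusted p = 0.00291). ITGB8 had 3.87, 3.43 and 1.77 CPM at 20 days, against 0.227, 0.797 and 0.324 CPM at 3 days (log2 change 2.75, adjusted p = 0.00318), and 0.0625 with limma-voom. The more abundant ITGAV, ITGB1, ITGA3 and ITGA5 were also called higher. In FAK and SRC signalling 11 rose and 1 fell of 34 tested (32.4% rose), with a median of 0.29. LIMS2 and PARVA belong to the complex of integrin-linked kinase. LIMS2 had 42.9, 48.2 and 4.28 CPM at 20 days, against 0.682, 0.0398 and 0.607 CPM at 3 days (log2 change 6.11, SE 0.66, adjusted p = 1.89e-06), and PARVA had 193, 180.1 and 87.8 CPM at 20 days, against 54.2, 51.4 and 49.9 CPM at 3 days (1.57 ± 0.18, log2 change ± SE). ARHGEF28, a guanine nucleotide exchange factor that binds FAK, had 20.1, 20.5 and 7.44 CPM at 20 days, against 2.22, 1.51 and 1.44 CPM at 3 days (log2 change 3.24, SE 0.39, adjusted p = 2.59e-06). The adaptors NEDD9 and BCAR1 and the adhesion proteins VCL, ZYX, TLN1 and TLN2 rose, and SRC was the member that fell. Of the FAK and SRC list, 6, 7 and 7 rose without 20-day replicate 1, 20-day replicate 2 and 3-day replicate 2. Of the laminins, ligands of integrins in basement membranes, 3 rose and 0 fell of 13 tested, with a median of 0.33. Their median level was 3.37, 3.55 and 2.9 at 20 days, against 2.68, 3.0 and 2.92 at 3 days (log2 CPM). All of these lay below vehicle, at 3.72 to 4.34. LAMB2 had 176, 188 and 131 CPM at 20 days, against 72.8, 88.2 and 83.1 CPM at 3 days (log2 change 1.02, SE 0.11, adjusted p = 3.68e-07), and LAMB1 and LAMC1 rose as well. Of the laminins, 5 rose without 20-day replicate 3. LAMB3, a chain of epithelial laminin, had 0.953, 0.953 and 0.964 CPM at 20 days, against 2.05, 1.2 and 1.25 CPM at 3 days (log2 change -0.59, adjusted p = 0.291), far below its vehicle level of 32.8, 32.9 and 33.9 CPM at 20 days and 64.2, 58.1 and 26.3 CPM at 3 days in vehicle.

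Fibrillar and network collagens, matrix glycoproteins and proteases rose in number. Of the collagens 14 rose and 2 fell of 29 tested (48.3% rose), with a median of 0.78. COL3A1, the fibrillar type III chain, had 749, 1053 and 479.7 CPM at 20 days, against 123, 133 and 126 CPM at 3 days (log2 change 2.58, SE 0.33, adjusted p = 1.6e-05). COL12A1, a chain that decorates fibrils, had 55.6, 58.6 and 12.7 CPM at 20 days, against 3.69, 3.03 and 3.04 CPM at 3 days (log2 change 3.71, SE 0.74, adjusted p = 0.00124). Vehicle libraries had 341, 297 and 312 CPM at 20 days and 136, 169.5 and 246 CPM at 3 days in vehicle for COL3A1, between the levels of the 2 BMS-986158 groups. COL1A1, COL1A2, COL5A1, COL5A2, COL4A1, COL4A2, COL6A1 and COL6A2 rose, and COL13A1 and COL21A1 fell. The fibroblast markers that rose are all collagens of this list, while the fibroblast proteoglycans DCN and LUM stayed at 0 counts. Median levels of the list were 5.77, 5.58 and 4.31 at 20 days, against 3.85, 3.91 and 3.86 at 3 days (log2 CPM), with 4.53 to 5.02 in vehicle. Of matrix glycoproteins and elastic fibre genes 11 rose and 1 fell of 31 tested (35.5% rose), with a median of 0.13; LOXL2, BGN, FBN1, FBN2 and SPARC were among those that rose, and ELN fell. Of the matrix glycoprotein list, 3 fell without 20-day replicate 3. Its median level was 3.65, 3.58 and 3.73 at 20 days, against 2.59, 2.8 and 2.77 at 3 days (log2 CPM), with 3.63 to 4.23 in vehicle. Of matrix proteases and inhibitors 13 rose and 3 fell of 28 tested (46.4% rose), with a median of 0.45. PLAU, the urokinase that activates plasminogen, had 62, 82.7 and 9.69 CPM at 20 days, against 5.97, 5.5 and 6.46 CPM at 3 days (log2 change 3.10, SE 0.48, adjusted p = 7.05e-05). ADAMTS5, an aggrecan-cleaving protease, had 0.635, 1.02 and 0.375 CPM at 20 days and 0 counts in all 3 libraries at 3 days, at least 18.8-fold higher against a floor of 3 counts over the 3-day group. MMP14, TIMP2, PLAT and PLAUR rose, and TIMP1, MMP11 and ADAMTS9 fell. Of the protease list, 1 fell without 20-day replicate 1 or 20-day replicate 2. Of 30 genes of the TGF-beta and BMP pathway, 9 rose and 2 fell, with a median of 0.12. INHBA, an activin subunit, was near 0 and had 0, 0.0635 and 0 CPM at 20 days, against 0.227, 0.598 and 0.182 CPM at 3 days (log2 change -3.74, adjusted p = 0.00599). Of the TGF-beta and BMP list, 4, 5, 5, 4 and 4 rose without 20-day replicate 1, 20-day replicate 2, 3-day replicate 1, 3-day replicate 2 and 3-day replicate 3.

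Mesenchymal markers and smooth muscle contractile genes moved with them, but not all in one direction. Of mesenchymal genes 10 rose and 3 fell of 25 tested (40% rose), with a median of 0.67. TPM1, a tropomyosin of stress fibres, had 421, 451 and 140.4 CPM at 20 days, against 40.2, 40.8 and 44.9 CPM at 3 days (log2 change 3.01, SE 0.40, adjusted p = 2.69e-05). FOXC2, ENG, TAGLN, PDGFRB, TWIST1 and CDH11 rose, while the factors TWIST2 and ZEB1 and the surface protein THY1 fell. Of smooth muscle contractile genes 8 rose and 0 fell of 20 tested (40% rose), with a median of 0.36. Their median level was 4.07, 3.95 and 3.16 at 20 days, against 3.21, 3.43 and 3.14 at 3 days (log2 CPM). All of these lay below vehicle, at 4.17 to 4.66. Of the smooth muscle list, 5, 3, 5 and 5 rose without 20-day replicate 1, 20-day replicate 2, 3-day replicate 2 and 3-day replicate 3. It shares 6 members with the mesenchymal list, and CALD1, MYLK, SMTN and TPM4 are among those that rose. EHD2, which coats caveolae, had 282, 279.5 and 67.2 CPM at 20 days, against 15.1, 16.6 and 13.3 CPM at 3 days (log2 change 3.81, SE 0.40, adjusted p = 1.49e-06).

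HOX genes, which set position along the body axis and are expressed in Ewing sarcoma, either fell or did not pass the test. Of the HOX genes 0 rose and 10 fell of 26 tested (38.5% fell), with a median of -0.81; HOXB8, given above, is not in this list. HOXB9 had 7.46, 8.77 and 9.1 CPM at 20 days, against 36.4, 36.5 and 35.8 CPM at 3 days (log2 change -2.10, SE 0.39, adjusted p = 0.000554). HOXC10 had 2.38, 1.78 and 5.51 CPM at 20 days, against 10.4, 11.2 and 10.4 CPM at 3 days (log2 change -1.71, SE 0.26, adjusted p = 4.34e-05). Each library at 20 days was below each at 3 days in both genes. HOXA7, HOXB2, HOXB3, HOXB5, HOXB7, HOXC9, HOXC11 and HOXD4 fell as well. Median levels were 2.29, 2.31 and 2.61 at 20 days, against 3.21, 2.96 and 3.18 at 3 days (log2 CPM). Vehicle libraries lay higher, at 3.48 to 3.58 after 20 days and 3.31 to 3.98 after 3 days. Of the HOX genes, 6 fell without 20-day replicate 1.

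**Figure D3:**
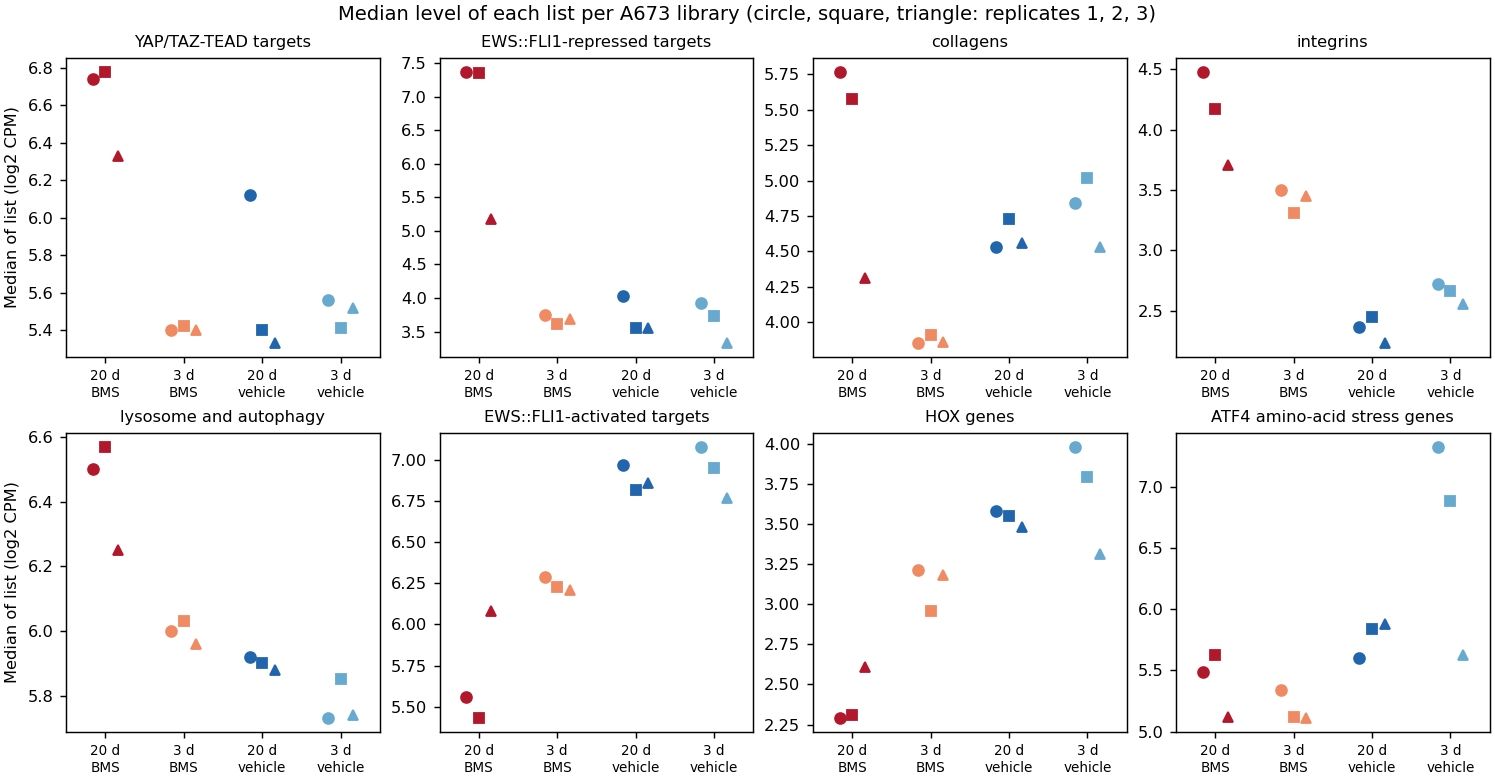
Median log2 CPM of the members of 8 lists in each A673 library, with 20-day and 3-day BMS-986158 (BMS) and then 20-day and 3-day vehicle from left to right; symbols are replicates. YAP/TAZ-TEAD targets, EWS::FLI1-repressed targets, integrins and lysosomal genes are highest in 20-day BMS-986158, and ATF4 genes stand apart in replicates 1 and 2 of 3-day vehicle.

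Of 9 genes that report BET inhibition itself, 1 was called between the times (11.1%), beside 20.2% of all genes. HEXIM1, an inhibitor of P-TEFb that rises when BET proteins are blocked, had 95.7, 96.2 and 69.6 CPM at 20 days, against 84.2, 86.8 and 92.6 CPM at 3 days (log2 change -0.01, SE 0.11, adjusted p = 0.973), against 53.4, 40 and 45.3 CPM at 20 days and 44.7, 45.5 and 37.1 CPM at 3 days in vehicle. SERPINI1, a serpin used as such a marker, had 6.57, 6.86 and 4.23 CPM at 20 days, against 6.31, 5.82 and 4.07 CPM at 3 days (log2 change 0.13, adjusted p = 0.8). TXNIP, a glucose-responsive arrestin, had 182, 254 and 250.0 CPM at 20 days, against 230.2, 204 and 183 CPM at 3 days (log2 change 0.15, adjusted p = 0.9). None of these passed the test. Of the list of BET inhibition markers 1 rose and 0 fell of 9 tested, with a median of 0.15, and the member that rose was ZCCHC24 (109, 105 and 96.6 CPM at 20 days, against 76.5, 73.3 and 75.5 CPM at 3 days). The median level of the list was 6.09, 6.12 and 5.51 at 20 days, against 5.69, 5.47 and 5.49 at 3 days on the log2 CPM scale, higher in 20-day replicates 1 and 2 and within the 3-day range in replicate 3. Against vehicle of the same time its median log2 difference was 1.93 at 20 days and 0.95 at 3 days. EFR3B, a plasma membrane scaffold, had 34.2, 30.9 and 57.5 CPM at 20 days, against 20.5, 22.1 and 21.9 CPM at 3 days (log2 change 0.92, adjusted p = 0.00662), but replicate 3 is its highest library, and without it the log2 change was 0.60 with an adjusted p of 0.0515. Of BET proteins and P-TEFb subunits 2 rose and 1 fell of 14 tested, with a median of 0.08. These shares (14.3% and 7.14%) are near those over all genes (11.3% and 8.91%). BRD3 and ELL2 rose, and LARP7 fell, but 0 rose without 3-day replicate 2, 1 rose without 20-day replicate 1, and 0 fell without 20-day replicate 2 or 3-day replicate 1. MYC had 397, 332 and 427 CPM at 20 days, against 305, 324 and 328 CPM at 3 days (log2 change 0.27, SE 0.10, adjusted p = 0.0529), a difference that missed the threshold and passed it without 20-day replicate 2 (0.37, adjusted p = 0.0203). CDKN1A, the cell cycle inhibitor p21, had 300.0, 284 and 79.6 CPM at 20 days, against 173, 175 and 169 CPM at 3 days (log2 change 0.36, adjusted p = 0.591), with replicate 3 below all 3-day libraries and the other replicates above them. Of polyadenylated histone genes 2 rose and 1 fell of 15 tested, with a median of -0.11; of histone-modifying and repressor genes 2 rose and 3 fell of 30 tested, with a median of -0.07. HDAC1 had 209.6, 199.7 and 216 CPM at 20 days, against 299, 319 and 302 CPM at 3 days (log2 change -0.56, adjusted p = 5.56e-05), and HDAC9 had 27.2, 31.6 and 9.96 CPM at 20 days, against 10.2, 8.93 and 6.34 CPM at 3 days (log2 change 1.44, adjusted p = 0.002), where replicate 3 lay within the 3-day range. Of the histone-modifying list, 6 fell without 20-day replicate 3.

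In the IGF axis, which feeds survival signals to Ewing sarcoma cells, members went in both directions, and IGF1 and its receptor IGF1R did not pass the test. Of the list 4 rose and 4 fell of 20 tested (20% each, beside 11.3% and 8.91% of all genes), with a median of 0.10. IGF1 had 3.81, 3.11 and 6.69 CPM at 20 days, against 3.52, 3.35 and 3.79 CPM at 3 days (log2 change 0.36, adjusted p = 0.265), and IGF1R had 87.8, 84.3 and 171 CPM at 20 days, against 101, 100.2 and 102 CPM at 3 days (log2 change 0.18, adjusted p = 0.645). Without 20-day replicate 3, the highest library of both, the log2 changes were -0.037 for IGF1 and -0.231 for IGF1R, not called. IGFBP2, a secreted binding protein, had 4502, 5645 and 2836 CPM at 20 days, against 1271, 1427 and 1388 CPM at 3 days (log2 change 1.67, SE 0.18, adjusted p = 8.8e-07). IGFBP7 had 23.8, 31.3 and 12.7 CPM at 20 days, against 0.398, 0.359 and 0.385 CPM at 3 days (log2 change 5.87, SE 0.68, adjusted p = 2.59e-06). In both, each 20-day library was above each 3-day library. STC2, a stanniocalcin that inhibits release of IGF from its binding proteins, had 0.847, 0.953 and 1.71 CPM at 20 days, against 9.95, 8.17 and 7.35 CPM at 3 days (log2 change -2.83, SE 0.37, adjusted p = 1.14e-05). IRS1 and IGF2R rose, and STC1, IGFBP4 and IGF2BP1 fell.

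In the lists of lysosomal, chaperone, lipid and NRF2 genes more members rose than fell, with median log2 changes of at most 0.44. Over all genes 11.3% rose. Of lysosome and autophagy genes 14 rose and 0 fell of 25 tested (56% rose), with a median of 0.44, and in a fit of the 6 libraries alone 8 rose. WIPI1, an autophagosome protein, had 19.6, 22.6 and 10.8 CPM at 20 days, against 5.97, 6.42 and 7.75 CPM at 3 days (log2 change 1.39, SE 0.35, adjusted p = 0.00584). LAMP2, a lysosomal membrane protein, had 210.1, 215 and 109 CPM at 20 days, against 85.9, 71.5 and 71.8 CPM at 3 days (log2 change 1.22, SE 0.16, adjusted p = 1.19e-05). SQSTM1, the autophagy receptor p62, had 143, 151 and 89 CPM at 20 days, against 60.9, 65 and 62.4 CPM at 3 days (log2 change 1.02, SE 0.14, adjusted p = 1.49e-05). In all 3 genes each 20-day library was above each 3-day library, with replicate 3 the lowest at 20 days. Of endoplasmic reticulum chaperones 11 rose and 0 fell of 22 tested (50% rose), with a median of 0.38. Of the chaperones, 5, 5, 5 and 6 rose without 20-day replicate 1, 20-day replicate 2, 3-day replicate 2 and 3-day replicate 3. CANX, the lectin chaperone calnexin, had 1027, 941 and 629 CPM at 20 days, against 449, 411 and 412 CPM at 3 days (log2 change 1.03, SE 0.15, adjusted p = 3.76e-05). Of cholesterol synthesis genes 6 rose and 0 fell of 24 tested, with a median of 0.32. Their median level was 6.32, 6.39 and 6.3 at 20 days, against 5.98, 5.97 and 5.87 at 3 days (log2 CPM), with 6.21 to 6.81 in vehicle. Of the cholesterol list, 1, 3, 3 and 3 rose without 20-day replicate 1, 20-day replicate 2, 3-day replicate 2 and 3-day replicate 3. Of fatty acid synthesis and storage genes 4 rose and 0 fell of 24 tested (16.7% rose, near the share over all genes), with a median of 0.07. CPT1A, which brings fatty acids into mitochondria, had 160.4, 151 and 96.1 CPM at 20 days, against 48.9, 48.5 and 54.4 CPM at 3 days (log2 change 1.42, SE 0.30, adjusted p = 0.00188). Of the fatty acid list, 2 rose without 20-day replicate 1, 20-day replicate 2, 3-day replicate 1 or 3-day replicate 3, and 3 fell without 20-day replicate 3. Of NRF2 targets 8 rose and 2 fell of 25 tested (32% rose), with a median of 0.19. Of the NRF2 list, 3, 3, 5, 5 and 5 rose without 20-day replicate 1, 20-day replicate 2, 3-day replicate 1, 3-day replicate 2 and 3-day replicate 3. NQO1, a quinone reductase, had 31.3, 23.2 and 9.32 CPM at 20 days, against 7.05, 6.02 and 5.59 CPM at 3 days (log2 change 1.78, SE 0.29, adjusted p = 0.000105). AKR1C2, an aldo-keto reductase of the same list, had 1.53, 1.02 and 1.61 CPM at 20 days, against 5.12, 4.5 and 4.25 CPM at 3 days (log2 change -1.72, SE 0.35, adjusted p = 0.000885); it has close copies in its gene family and is uncertain.

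Cell cycle and growth genes changed in few members. Of G1/S genes 0 rose and 2 fell of 25 tested, with a median of -0.02, and of G2/M genes 2 rose and 2 fell of 25 tested, with a median of 0.05. HMMR, a mitotic spindle protein, had 62.5, 67.2 and 53.3 CPM at 20 days, against 47.7, 35.8 and 36 CPM at 3 days (log2 change 0.62, adjusted p = 0.00255). Of the G2/M list, 5 rose without 20-day replicate 3. Of D cyclins, CDKs and their inhibitors 1 rose and 1 fell of 16 tested, with a median of 0. CDK6, the G1 kinase, had 47.7, 47.2 and 25.5 CPM at 20 days, against 21, 22.4 and 19.9 CPM at 3 days (log2 change 0.93, adjusted p = 0.00221). Of the cyclin and CDK list, 3 fell without 20-day replicate 3. These counts are near or under the shares over all genes. Of the MYC network and its targets 6 rose and 4 fell of 30 tested, with a median of 0.06. Of the MYC list, 1, 3, 3, 2 and 3 rose without 20-day replicate 1, 20-day replicate 2, 3-day replicate 1, 3-day replicate 2 and 3-day replicate 3, and 2 fell without 20-day replicate 1, 20-day replicate 2 or 3-day replicate 3. MXD4, a MAX partner that opposes MYC, had 97.8, 84.9 and 88.6 CPM at 20 days, against 46.5, 46.8 and 54.6 CPM at 3 days (log2 change 0.87, SE 0.09, adjusted p = 5.26e-07). MYCN and MYCL fell. Of cytosolic ribosomal protein genes 3 rose and 6 fell of 34 tested, with a median of -0.14, and 12 fell with library size alone. Of the ribosomal list, 5, 1 and 1 rose without 3-day replicate 1, 3-day replicate 2 and 3-day replicate 3. RPL22 had 421, 462 and 458 CPM at 20 days, against 771, 755 and 744 CPM at 3 days (log2 change -0.76, SE 0.15, adjusted p = 0.000731); such genes have many processed copies and are uncertain. Of nuclear oxidative phosphorylation genes 2 rose and 6 fell of 30 tested, with a median of -0.01, and 10 fell with library size alone. UQCRB, a subunit of complex III, had 37.8, 40.5 and 35.6 CPM at 20 days, against 60, 57.6 and 57.3 CPM at 3 days (log2 change -0.62, adjusted p = 0.00152). Of these genes, 7 and 4 rose without 20-day replicate 3 and 3-day replicate 1, and 2, 3, 3 and 3 fell without 20-day replicate 1, 3-day replicate 1, 3-day replicate 2 and 3-day replicate 3. Of 13 mitochondrially encoded genes, 0 rose and 2 fell, with a median of -0.75. Of the 13, 4 fell without 20-day replicate 3.

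Stress and death genes were mixed, and calls both ways were also seen over all genes (11.3% rose and 8.91% fell). Of ATF4 amino-acid stress genes 1 rose and 3 fell of 32 tested, with a median of -0.006. ATF4, the factor itself, had 258, 262 and 234 CPM at 20 days, against 353, 358 and 354 CPM at 3 days (log2 change -0.50, SE 0.18, adjusted p = 0.0479), and its adjusted p ran from 0.0936 to 0.112 when any 1 of the 6 libraries was left out, so this call does not hold. Of the ATF4 list, 1 fell without 20-day replicate 1 or 20-day replicate 2. CHAC1, a glutathione-degrading ATF4 target, had 0.794, 0.826 and 0.75 CPM at 20 days, against 1.08, 0.797 and 1.68 CPM at 3 days (log2 change -0.64, adjusted p = 0.63). SLC7A11, the cystine transporter, had 121, 104 and 53.6 CPM at 20 days, against 39.2, 34.5 and 32.9 CPM at 3 days (log2 change 1.39, SE 0.31, adjusted p = 0.00273). In vehicle, where 3.08% of all genes fell between 3 and 20 days, 21 of the 32 fell and 0 rose. This count moved both ways with single libraries. Without 20-day vehicle replicate 1, 3-day replicate 1 or 3-day replicate 2, 2 fell, and 0 in a fit of the 6 vehicle libraries alone. Without 3-day vehicle replicate 3, which stood apart from its group, 27 fell, and with DESeq2 24 fell. Of glycolysis and hypoxia genes 8 rose and 3 fell of 30 tested (26.7% rose), with a median of 0.30. ADM, the hypoxia-induced peptide adrenomedullin, had 83.7, 98.5 and 31.4 CPM at 20 days, against 5.85, 6.89 and 7.96 CPM at 3 days (log2 change 3.35, SE 0.47, adjusted p = 3.89e-05). VEGFA, the endothelial growth factor, had 63, 56.6 and 99.9 CPM at 20 days, against 188, 229 and 230.0 CPM at 3 days (log2 change -1.56, SE 0.29, adjusted p = 0.000613). ENO2, the neuronal enolase, had 15.4, 12.5 and 26.4 CPM at 20 days, against 46.6, 50 and 48.3 CPM at 3 days (log2 change -1.41, SE 0.22, adjusted p = 0.0001). Hypoxia genes thus went in both directions. Of the hypoxia list, 3, 4, 4 and 4 rose without 20-day replicate 1, 20-day replicate 2, 3-day replicate 2 and 3-day replicate 3. Of p53 targets 1 rose and 3 fell of 22 tested, with a median of -0.03; TP53INP1 had 18.5, 18.1 and 20.9 CPM at 20 days, against 12.9, 10.3 and 9.35 CPM at 3 days (log2 change 0.83, adjusted p = 0.000131). Of the p53 list, 3 rose without 20-day replicate 3. Of the BCL2 family 5 rose and 2 fell of 18 tested, with a median of 0.17. BOK, a pro-apoptotic member, had 67.4, 66.6 and 22.4 CPM at 20 days, against 15.3, 17.6 and 16.8 CPM at 3 days (log2 change 1.65, SE 0.27, adjusted p = 0.000122), and BIRC2, BCL2L1, BCL2L11 and BAK1 rose too. Of the BCL2 family, 3 rose without 20-day replicate 1, 20-day replicate 2 or 3-day replicate 2.

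Signalling lists split into members that rose and members that fell. Calls both ways were also seen over all genes, where 11.3% rose and 8.91% fell. Of immediate early and AP-1 genes 9 rose and 5 fell of 24 tested, with a median of 0.34. FOSL1, FOSL2, KLF2, KLF4 and JUN were among those that rose. FOS, the founding AP-1 member, had 13.2, 7.82 and 15.9 CPM at 20 days, against 55.3, 53.5 and 59.5 CPM at 3 days (log2 change -2.18, SE 0.47, adjusted p = 0.0022). EGR3 had 1.59, 1.02 and 2.68 CPM at 20 days, against 9.15, 11.1 and 9.62 CPM at 3 days (log2 change -2.48, SE 0.40, adjusted p = 8.04e-05). Both fell with EGR2, FOSB and JUNB. Of the immediate early list, 5 rose without 20-day replicate 1 or 20-day replicate 2. Of MAPK feedback genes 4 rose and 3 fell of 23 tested, with a median of -0.05. PHLDA1, a pleckstrin-like regulator, had 75.7, 83.1 and 16.9 CPM at 20 days, against 7.56, 6.26 and 5.85 CPM at 3 days (log2 change 3.16, SE 0.56, adjusted p = 0.000353). SPRED3, an inhibitor of RAS signalling, had 1.85, 1.27 and 1.39 CPM at 20 days, against 4.72, 5.94 and 5.73 CPM at 3 days (log2 change -1.85, SE 0.27, adjusted p = 2.69e-05). Receptor tyrosine kinases likewise divided, as 7 rose and 6 fell of 37 tested, with a median of 0.003. MET and PDGFRB rose with AXL, and ALK and ERBB4 fell. Of the receptor kinases, 3 and 2 fell without 20-day replicate 1 and 20-day replicate 2. Of NF-kB and cytokine genes 5 rose and 1 fell of 19 tested (26.3% rose), with a median of 0.14. CSF1, the macrophage growth factor, had 5.88, 6.42 and 0.857 CPM at 20 days, against 0.114, 0.319 and 0.304 CPM at 3 days (log2 change 4.03, SE 0.57, adjusted p = 2.11e-05). In the WNT pathway 6 rose and 4 fell of 32 tested, with a median of -0.003. LEF1, a nuclear effector of WNT, had 1.06, 0.953 and 2.46 CPM at 20 days, against 8.87, 8.09 and 8.48 CPM at 3 days (log2 change -2.49, SE 0.52, adjusted p = 0.00133). Of the WNT list, 2, 2, 8 and 2 fell without 20-day replicate 1, 20-day replicate 2, 20-day replicate 3 and 3-day replicate 3. In the Notch pathway 1 rose and 4 fell of 24 tested, with a median of -0.12. JAG2, a Notch ligand, had 20.8, 18.4 and 35.9 CPM at 20 days, against 63, 73.4 and 65.5 CPM at 3 days (log2 change -1.42, SE 0.23, adjusted p = 0.000121), and DLL1 and HES1 fell while JAG1 rose. Of the Notch list, 2 fell without 20-day replicate 1 or 20-day replicate 2.

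Neuronal and surface lists were split as well. Over all genes 11.3% rose and 8.91% fell, so calls both ways were not particular to these lists. Of neuronal genes 5 rose and 5 fell of 30 tested, with a median of -0.10. CHGB, the granule protein chromogranin B, had 6.09, 5.72 and 11.7 CPM at 20 days, against 28.5, 29.5 and 31.9 CPM at 3 days (log2 change -1.93, SE 0.41, adjusted p = 0.00155). MAP2, a dendritic microtubule protein, had 12.4, 12.6 and 7.5 CPM at 20 days, against 3.52, 3.27 and 3.38 CPM at 3 days (log2 change 1.67, SE 0.27, adjusted p = 0.000106). Of the neuronal list, 3, 3 and 8 fell without 20-day replicate 1, 20-day replicate 2 and 20-day replicate 3. Of axon guidance genes 7 rose and 6 fell of 31 tested, with a median of 0.09. PLXNC1, a semaphorin receptor, had 10.4, 11.8 and 7.71 CPM at 20 days, against 2.9, 1.71 and 2.25 CPM at 3 days (log2 change 2.14, SE 0.25, adjusted p = 1.89e-06). Of the axon guidance list, 2 fell without 20-day replicate 1 or 20-day replicate 2. Of cadherins and protocadherins 5 rose and 3 fell of 27 tested, with a median of 0.24; PCDH1 had 37.4, 43.5 and 7.87 CPM at 20 days, against 7.05, 6.06 and 7.71 CPM at 3 days (log2 change 2.09, SE 0.43, adjusted p = 0.0012). Of the cadherins, 3 rose without 3-day replicate 2 or 3-day replicate 3, and 1 fell without 20-day replicate 1, 20-day replicate 2, 3-day replicate 1 or 3-day replicate 3. Of ABC transporters 3 rose and 0 fell of 15 tested, with a median of -0.08. ABCA3, a lipid transporter, had 154, 154 and 97.3 CPM at 20 days, against 59.7, 62.5 and 63 CPM at 3 days (log2 change 1.13, SE 0.16, adjusted p = 1.67e-05). Of the ABC list, 5 rose without 20-day replicate 3. Of class I antigen presentation genes 3 rose and 0 fell of 17 tested, with a median of 0.30, and of interferon-stimulated genes 2 rose and 4 fell of 31 tested, with a median of 0.04. Of the class I list, 0, 1 and 1 rose without 20-day replicate 1, 20-day replicate 2 and 3-day replicate 2. Of the interferon list, 0, 2, 2 and 2 fell without 20-day replicate 1, 20-day replicate 2, 3-day replicate 2 and 3-day replicate 3.

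Whether these changes also occur with time alone was addressed in vehicle cells. Between 3 and 20 days in vehicle, 505 genes (3.02%) rose and 514 (3.08%) fell, and the counts rest on single libraries: without 3-day vehicle replicate 3 they were 1864 and 1895, and without 20-day replicate 1, 3-day replicate 1 or 3-day replicate 2 they were 3 and 11, 3 and 9, and 3 and 13. Fitted on these 6 libraries alone, edgeR called 0 genes, with 2661 at an unadjusted p under 0.05; DESeq2 called 774 and 906. Of the 1890 genes that rose in BMS-986158, 92 rose in vehicle, which is 4.87% of them and 18.2% of the vehicle genes that rose, and 49 fell there (2.59%, and 9.53% of the vehicle genes that fell). Of the 1489 that fell, 89 fell in vehicle (5.98%, and 17.3% of the vehicle list) and 22 rose there (1.48%, and 4.36%). PGF, a placental growth factor of the VEGF family, had 94.5, 83.7 and 33.4 CPM at 20 days, against 16.2, 19.6 and 18.1 CPM at 3 days in BMS-986158 and 64.2, 32.8 and 35.1 CPM at 20 days and 18.1, 18.4 and 17.6 CPM at 3 days in vehicle (vehicle log2 change 1.29, SE 0.31, adjusted p = 0.0163). RGS5, a pericyte regulator of G protein signalling whose counts may hold reads of an overlapping antisense gene, had 13.5, 13.3 and 5.57 CPM at 20 days, against 3.69, 3.35 and 3.81 CPM at 3 days in BMS-986158 and 36.7, 15.2 and 12.7 CPM at 20 days and 7.54, 5.83 and 11.2 CPM at 3 days in vehicle (vehicle log2 change 1.39, SE 0.38, adjusted p = 0.0321). BHLHE22, a neural factor, rose in vehicle with 11.9, 6.75 and 6.78 CPM at 20 days and 2.83, 3.41 and 5.51 CPM at 3 days in vehicle (vehicle log2 change 1.09, SE 0.22, adjusted p = 0.00908) and fell in BMS-986158 with 0.423, 0.508 and 0.964 CPM at 20 days, against 2.22, 1.16 and 1.46 CPM at 3 days (log2 change -1.27, adjusted p = 0.0154), a call lost without 20-day replicate 1 (-1.04, adjusted p = 0.114), replicate 2 (-1.15, 0.0768) or 3-day replicate 1 (-1.06, 0.0586). ALDH1L2 and CTH, enzymes of one-carbon and cysteine metabolism, were high only in replicates 1 and 2 of 3-day vehicle: ALDH1L2 had 2.58, 3.71 and 4.89 CPM at 20 days and 25.6, 19.1 and 6.9 CPM at 3 days in vehicle, and CTH had 14.5, 17.5 and 18.5 CPM at 20 days and 102, 72.1 and 20.7 CPM at 3 days in vehicle. ECHDC2, a mitochondrial enoyl-CoA hydratase family member, had 1.22, 4.37 and 2.86 CPM at 20 days and 15, 14.5 and 5.13 CPM at 3 days in vehicle. In BMS-986158 the log2 changes of these 3 genes were 0.05, 0.05 and -1.16, none called, though ECHDC2 passed without 20-day replicate 3 (-1.61, adjusted p = 0.0232). The vehicle calls of PGF, RGS5, BHLHE22, CTH and ECHDC2 were each lost without 20-day replicate 1, 3-day replicate 1 or 3-day replicate 2, with adjusted p from 0.0636 to 0.38.

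The difference between the change in BMS-986158 and the change in vehicle was called higher for 724 genes (4.33%) and lower for 490 (2.93%); without 20-day BMS-986158 replicate 3 these were 1355 and 989. Among genes with a mean log2 CPM of at least 2 the highest 5 were TNXB (log2 difference 5.15, SE 0.71, adjusted p = 0.000194), NT5E (5.11), PDLIM1 (4.88), LOX (4.86) and EHD2 (4.20). For LOX the adjusted p was 0.00186 in edgeR and 0.0725 in limma-voom. Of the lowest 5, NOS1, the neuronal nitric oxide synthase, had 0, 0 and 0.214 CPM at 20 days, against 6.42, 5.02 and 4.94 CPM at 3 days in BMS-986158 and 31.4, 55.1 and 53.2 CPM at 20 days and 91, 77.3 and 34.9 CPM at 3 days in vehicle (log2 difference -5.53, SE 1.25, adjusted p = 0.00866). SLC38A5, an amino acid transporter, had 0.529, 0.254 and 0.964 CPM at 20 days, against 5.85, 7.13 and 7.65 CPM at 3 days in BMS-986158 and 97, 76 and 66.5 CPM at 20 days and 48.5, 52.3 and 68.5 CPM at 3 days in vehicle (log2 difference -4.02, SE 0.38, adjusted p = 3.31e-07). ESRRB, an orphan nuclear receptor, had 0.159, 0.191 and 0.589 CPM at 20 days, against 3.92, 3.39 and 3.08 CPM at 3 days in BMS-986158 and 17, 22.8 and 21.8 CPM at 20 days and 23.8, 25.6 and 16.1 CPM at 3 days in vehicle (-3.33). VGF (-3.69) and HOXB8 (-3.24) were the other two. Of THBS1 and CCN2 the difference was not called (4.16 and 2.72), and 20-day vehicle replicate 1 was the highest vehicle library of both. By list, 8 of 25 YAP/TAZ-TEAD targets, 11 of 29 collagens, 8 of 17 integrins, 7 of 22 EWS::FLI1-repressed targets and 6 of 25 lysosomal genes had a difference called higher, and 5 of 29 EWS::FLI1-activated targets and 2 of 26 HOX genes one called lower. Such counts were not particular to these lists. Of 32 ATF4 genes 12 were called higher and 1 lower, of 30 MYC network genes 3 and 7, and of 25 G1/S genes 0 and 4.

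**Figure D4:**
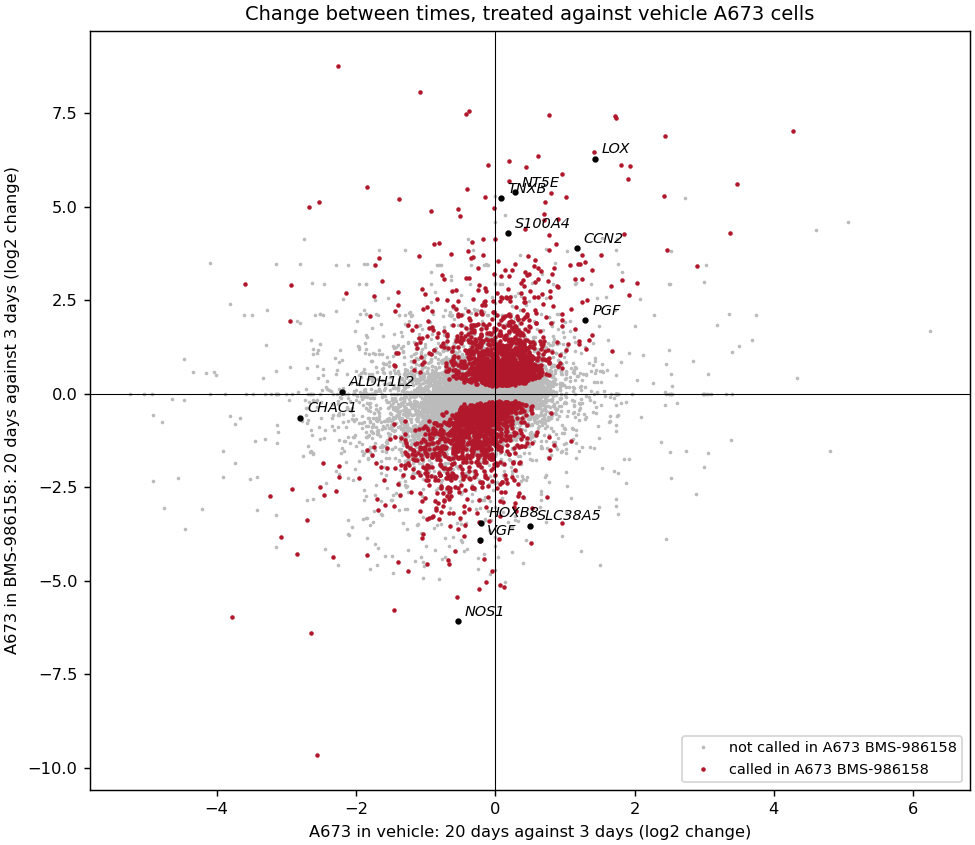
Each point is 1 of 16713 genes: log2 change at 20 against 3 days in vehicle (horizontal) and in BMS-986158 (vertical) in A673, red where called in BMS-986158. LOX, NT5E, TNXB and S100A4 lie high near the vertical axis, VGF, HOXB8, SLC38A5 and NOS1 low, and ALDH1L2 and CHAC1 lie to the left near 0 in BMS-986158; points with the largest changes include genes of few counts.

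In CHLA10, the other line kept in BMS-986158 (22.2 to 26.3 M counts a library), 650 genes (3.89%) rose and 193 (1.15%) fell between the times. Of the A673 genes that rose, 154 rose in CHLA10 (8.15% of the A673 list and 23.7% of the CHLA10 list), and 7 fell. CHLA10 20-day replicate 3 stood apart from its group (SD 0.642, against 0.406 to 0.498 for the other 5 libraries). Of those that fell in A673, 55 fell in CHLA10 (3.69% and 28.5%), and 63 rose there. ANKRD1 had 62.2, 74.7 and 645 CPM at 20 days, against 13.9, 11.6 and 26.6 CPM at 3 days in CHLA10 (log2 change 3.91, SE 0.89, adjusted p = 0.0112), and without CHLA10 20-day replicate 3, its highest library, the log2 change was 1.98 with an adjusted p of 0.189; the call was also lost without 3-day replicate 1 (0.0704) or 2 (0.0678). FLT1, a VEGF receptor, had 113, 162 and 24.1 CPM at 20 days, against 13.6, 12 and 12.9 CPM at 3 days in A673 (log2 change 2.95, SE 0.57, adjusted p = 0.00117), and 15.6, 18.2 and 65.8 CPM at 20 days, against 5.09, 4.63 and 5.29 CPM at 3 days in CHLA10 (2.73), where leaving out the same library gave 1.75 with an adjusted p of 0.0783. ATCAY, a neuronal caytaxin, had 22.4, 15.3 and 74 CPM at 20 days, against 4.81, 5.21 and 6.11 CPM at 3 days in CHLA10 (2.79) and a log2 change of -0.03 in A673, not called. SYNPR, a synaptic vesicle protein, fell in both lines, with 2.61, 2.99 and 2.12 CPM at 20 days, against 10.1, 9.18 and 19.2 CPM at 3 days in CHLA10 (-2.31) and 1.38, 0.89 and 1.82 CPM at 20 days, against 4.09, 3.55 and 4.86 CPM at 3 days in A673 (log2 change -1.60, adjusted p = 0.00187). TMEM132B had 9.29, 11.6 and 5.79 CPM at 20 days, against 22.7, 18.4 and 67 CPM at 3 days in CHLA10 (-2.01) and -0.45 in A673, not called. CDH12, a neural cadherin, had 3.5, 3.51 and 2.73 CPM at 20 days, against 10.7, 10.4 and 18.3 CPM at 3 days in CHLA10 (-2.01); in A673 it was near 0, with 0, 0 and 0.107 CPM at 20 days, against 0.511, 0.239 and 0.283 CPM at 3 days (log2 change -2.93, adjusted p = 0.031), a call lost without 20-day replicate 1 or 2 or without 3-day replicate 1 or 3, with adjusted p from 0.0527 to 0.152.

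The test of the difference between the lines (A673 minus CHLA10) called 602 genes higher (3.6%) and 808 lower (4.83%); without A673 20-day replicate 3 these were 1380 and 1532. LOX (log2 difference 6.03, SE 0.81, adjusted p = 0.000111) was already at 82, 52.1 and 71.4 CPM at 20 days, against 49.5, 50.1 and 73.5 CPM at 3 days in CHLA10. TNXB (4.95), L1CAM (3.80) and TGFB2 (5.17) were also among the highest 5, with 14.7, 10.9 and 31.1 CPM at 20 days, against 11.1, 10.6 and 16.4 CPM at 3 days for TGFB2 in CHLA10. APOLD1, an endothelial stress gene, had 78.7, 96.7 and 9.53 CPM at 20 days, against 7.16, 5.06 and 5.69 CPM at 3 days in A673, and 4.59, 5.25 and 2.53 CPM at 20 days, against 6.64, 6.59 and 3.82 CPM at 3 days in CHLA10 (log2 difference 3.83, SE 0.73, adjusted p = 0.00192). VGF was low in CHLA10 throughout, with 7.7, 1.92 and 15.8 CPM at 20 days, against 3.93, 4.14 and 3.82 CPM at 3 days (log2 difference -5.00, SE 0.73, adjusted p = 0.000224). ARNT2, a partner of bHLH-PAS factors, had 7.99, 6.67 and 6.53 CPM at 20 days, against 16, 17.1 and 15.1 CPM at 3 days in A673, and 8.21, 7.61 and 18.2 CPM at 20 days, against 0.596, 0.579 and 1.34 CPM at 3 days in CHLA10 (log2 difference -4.93, SE 0.45, adjusted p = 3.84e-07). It thus fell in one line and rose in the other. DSG2, a desmosomal cadherin, had 9, 7.37 and 18.1 CPM at 20 days, against 24.9, 25 and 22.4 CPM at 3 days in A673, and 3.35, 3.4 and 6.48 CPM at 20 days, against 0.199, 0.49 and 0.65 CPM at 3 days in CHLA10 (log2 difference -4.36, SE 0.55, adjusted p = 1.81e-05); its fall in A673 was lost without 20-day replicate 1 (adjusted p = 0.114) or 2 (0.129) or 3-day replicate 1 (0.0518) or 2 (0.0534). PLA2G4A, a phospholipase that frees arachidonic acid, had 15.1, 9.53 and 23 CPM at 20 days, against 41, 33.8 and 36.6 CPM at 3 days in A673, and 2.22, 1.7 and 1.92 CPM at 20 days, against 0.238, 0.535 and 0.173 CPM at 3 days in CHLA10 (log2 difference -3.84, SE 0.51, adjusted p = 3.78e-05). TFPI2, a protease inhibitor, had 9.85, 9.72 and 2.3 CPM at 20 days, against 18.6, 18 and 14.3 CPM at 3 days in A673, and 1.59, 1.33 and 15.1 CPM at 20 days, against 0.556, 0.668 and 1.04 CPM at 3 days in CHLA10 (log2 difference -4.20, SE 1.11, adjusted p = 0.0243), where CHLA10 replicate 3 sets the value: without it the difference was -2.17 with an adjusted p of 0.0882, and it was also lost without CHLA10 3-day replicate 1 (0.0673) or 2 (0.0638). By list, 10 of 25 YAP/TAZ-TEAD targets and 8 of 29 collagens differed upwards, and 11 of 26 HOX genes differed downwards.

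**Figure D5:**
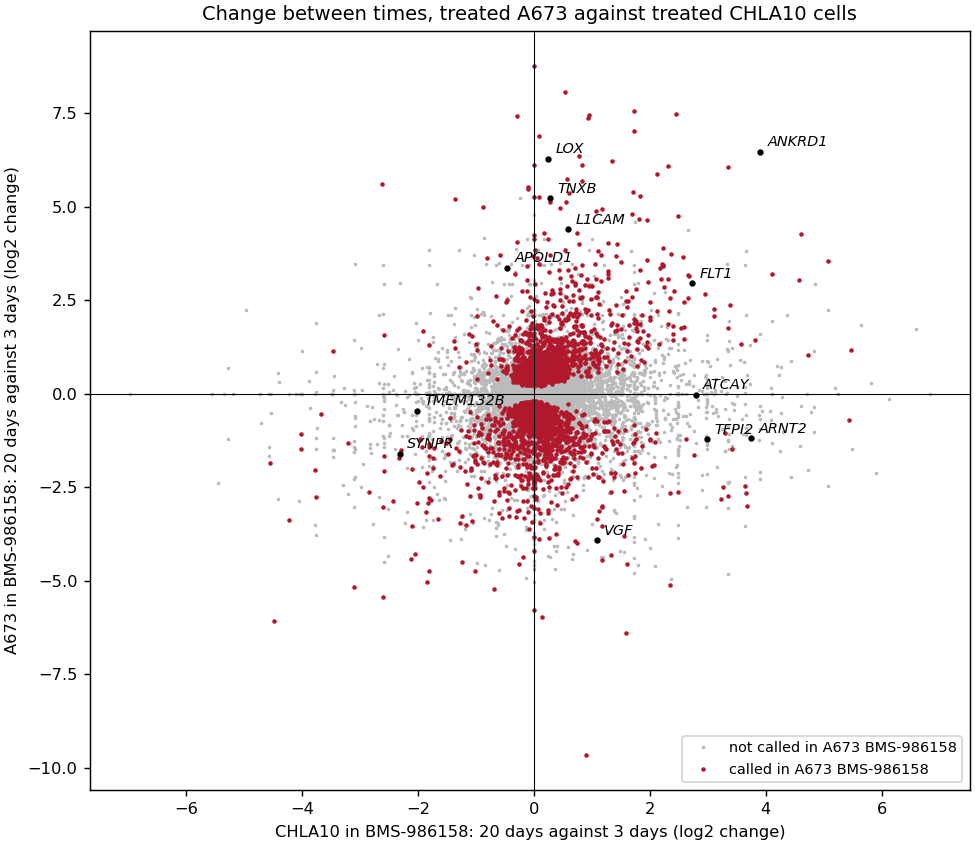
Each point is 1 of 16713 genes: log2 change at 20 against 3 days in BMS-986158 in CHLA10 (horizontal) and in A673 (vertical), red where called in A673. ANKRD1 and FLT1 are higher in both lines, LOX, TNXB and L1CAM in A673, and ARNT2 is lower in A673 and higher in CHLA10.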

How the data were processed

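Poly(A) RNA of 3 Ewing sarcoma lines was sequenced as paired ends on a Illumina NovaSeq, per the labels' protocols, in 10 groups of 3 libraries (30 in all), labelled as batch 1. The values are read counts per gene that the authors deposited in 1 table of 33538 gene IDs. FastQC, Trim Galore, STAR and DESeq2 on GRCh38 (hg38) are named per the submitters' processing notes. Which tool counted reads, and with what strand setting and gene models, is not given in the sources used here, so reads of overlapping antisense genes cannot be told apart. Symbols were matched by ID for 33456 genes with GENCODE 29 and RefSeq names, which left 82 with none.

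Counts were tested with edgeR 4.0.16 in R 4.3.3 (quasi-likelihood test, robust, TMM scaling, filterByExpr by group). All 30 libraries entered 1 model with a mean per group, so that they share 1 estimate of the spread. P-values were Benjamini-Hochberg adjusted over all 16713 genes tested, and called means an adjusted p under 0.05. SE is the log2 change over the square root of F. CPM are counts per 1000000 of TMM-scaled library size, with a prior count of 2 on the log2 scale; marker sums use unscaled totals. Differences of changes (BMS-986158 minus vehicle, and A673 minus CHLA10) are contrasts of the same model. In counts simulated from its own model, the test recovered most of the larger changes that were put in. Only genes above a set CPM at 3 days were changed, so genes of few counts were not covered. That simulation held no library that stood apart, so it does not show how the test does with such libraries. The 20-day and 3-day samples share replicate numbers in the labels, but same-numbered libraries deviated from their groups with correlations of 0.0358, -0.0506 and 0.0881, so the numbers were not used as pairs. No 2 libraries of a group agreed within sampling noise. Depth sets the precision: at 17.4 M counts, 1 CPM is about 17 reads.

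The 46 gene lists and 7 marker lists, as well as the comparison itself, were chosen with earlier results of these data known, so list counts are descriptions and no list was tested as a set. Of 1222 list entries, markers included, 1219 matched the table and 1156 passed the filter. Genes were named by rule: the 10 highest and 10 lowest log2 changes among called genes with a mean log2 CPM of at least 2, non-overlapping groups and a symbol of no clone, antisense gene or pseudogene; up to 3 called members with the largest changes in each list; fixed genes (PTK2, MYC, HEXIM1, IGF1, IGF1R, SERPINI1, LAMB3, TXNIP, CDKN1A, CHAC1, ATF4 and EFR3B); the extremes of each difference of changes (5 at either end); and those in vehicle and in CHLA10 (3 at either end). Some genes that the rule names are not reported here. Other symbols are called list members given without values, and FLI1 and CD99 were added after their values were seen. Promoter windows came from RefSeq (GRCh38.p14) and matched 12544 genes tested. Alternatives were limma-voom (limma 3.58.1), DESeq2 1.42.0, other scalings, filters, thresholds and fits, and each library left out; 1 more, both libraries that stood apart left out, was chosen after seeing the data. Figures were drawn with matplotlib 3.10.9 in Python 3.11.15.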

Additional observations from a re-analysis of the deposited data

Results flagged for a closer look

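Named genes are listed here because the change between 20 and 3 days differed between groups by the edgeR test of the difference itself, at an adjusted p under 0.05. All values are log2 differences. The change in BMS-986158 minus the change in vehicle passed for 60 of the named genes, 40 of them positive. The adjusted p values ran from 1.45e-07 to 0.0473. Over all genes tested it was called higher for 4.33% and lower for 2.93%. Many genes were named for a large change in BMS-986158, which is part of this difference, or for the difference itself. The count of 60 thus follows largely from the naming rule. Among genes whose change was more positive in BMS-986158, this difference was 6.22 for LIMS2, 5.15 for TNXB, 5.11 for NT5E, 4.91 for IGFBP7, 4.88 for PDLIM1, 4.86 for LOX, 4.83 for CSF1 and 4.20 for EHD2. It was 4.11 for S100A4, 3.97 for L1CAM, 3.93 for PHLDA1, 3.93 for CD44, 3.81 for AXL, 3.63 for APOLD1, 3.48 for PLAU and 3.35 for ITGB3. Next came 3.15 for EPAS1, 2.81 for ARHGEF28, 2.63 for PCDH1, 2.54 for ITGA4, 2.51 for ADM, 2.33 for PLXNC1, 2.26 for ALDH1L2 and 2.25 for TPM1. Lower in size were 1.99 for CTH, 1.79 for COL3A1, 1.73 for WIPI1, 1.69 for IGFBP2, 1.66 for NQO1, 1.59 for SLC7A11, 1.55 for TP53INP1 and 1.51 for HDAC9. Then followed 1.51 for MXD4, 1.46 for BOK, 1.42 for PARVA, 1.12 for ABCA3, 1.07 for LAMB2, 0.82 for LAMP2, 0.66 for SQSTM1 and 0.53 for ZCCHC24. Among genes whose change was more negative in BMS-986158, it was -5.53 for NOS1, -4.02 for SLC38A5, -3.69 for VGF, -3.33 for ESRRB, -3.24 for HOXB8, -2.80 for NPY5R, -2.75 for SEMA6B and -2.57 for NPY1R. Smaller differences were -2.55 for NEU4, -2.37 for BHLHE22, -2.29 for EGR3, -2.12 for ELN, -2.10 for STC2, -2.09 for EGR2, -2.03 for TNNT1 and -1.79 for SYNPR. The least negative were -1.57 for NKX2-2, -1.26 for SPRED3, -1.10 for HOXC10 and -0.56 for HDAC1. For LOX the adjusted p was 0.0725 with limma-voom, so this difference is not called there. LIMS2, IGFBP7 and CSF1 were low at 3 days in BMS-986158, and their size depends on few reads.

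The change in A673 minus the change in CHLA10, both in BMS-986158, passed for 11 genes named for that difference or for CHLA10, with adjusted p from 3.84e-07 to 0.0243. It was 6.03 for LOX, 5.17 for TGFB2, 4.95 for TNXB, 3.83 for APOLD1 and 3.80 for L1CAM where A673 changed more upwards, and -5.00 for VGF, -4.93 for ARNT2, -4.36 for DSG2, -4.20 for TFPI2, -3.84 for PLA2G4A and -2.82 for ATCAY where A673 changed more downwards. It also passed for 50 genes named by other parts of the rule, 29 of them positive, which are not listed one by one. Over all genes tested it was called higher for 3.6% and lower for 4.83%. Many of the 50 were named for their change in A673, which is part of this difference, so their number follows largely from the rule. The difference was not called for TGFB2 (4.54, adjusted p = 0.0785) and APOLD1 (3.29, 0.0628) with limma-voom, nor for L1CAM when the fit held the libraries of the contrast alone (3.80, 0.0534). For TFPI2 the adjusted p was 0.0529 with no filter, 0.0766 with the libraries of the contrast alone and 0.0882 without CHLA10 20-day replicate 3. CHLA10 20-day replicate 3 had an SD of 0.642 to the rest of its group, against 0.443 and 0.486 for the other two.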

How the results depend on the processing

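Counts of called genes moved with the libraries used more than with the tool, and each pair below gives genes that rose and then genes that fell. Between 20 and 3 days in BMS-986158 (1890 and 1489), leaving out 1 library gave 1051 to 2572 and 692 to 2302. At an adjusted p under 0.01 there were 1076 and 727, at a log2 change of at least 1 there were 530 and 616, and in a fit of the 6 libraries alone 1236 and 985. Leaving out both A673 libraries that stood apart gave 2854 and 2636. In vehicle (505 and 514) the 1-library range was 3 to 1864 and 9 to 1895, with 332 that fell without 20-day replicate 3. There were 22 and 47 at 0.01, 14 and 232 at a log2 change of 1, 327 that rose with library size only, 0 and 0 in the fit alone, 774 and 906 with DESeq2, and 2201 and 2243 without both libraries.

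For BMS-986158 minus vehicle (724 and 490) the range was 414 to 1355 and 265 to 989, with 309 and 165 at 0.01, 395 and 139 at a log2 difference of 1, 377 and 214 in the fit alone, and 1667 and 1534 without both. In CHLA10 (650 and 193) the range was 327 to 6.7e+02 (rounded) and 99 to 159, with 310 and 80 at 0.01, 379 and 88 at a log2 change of 1, 181 and 30 in the fit alone, 332 that fell with DESeq2, and 1014 and 356 without the pair of A673 libraries, which enter only through the shared spread. For A673 minus CHLA10 (602 and 808) the range was 295 to 1380 and 468 to 1532, with 212 and 326 at 0.01, 227 that rose at a log2 difference of 1, 366 that rose in the fit alone, and 1735 and 1866 without both. The cause was not tested. Stricter thresholds call fewer genes by construction, while leaving out libraries gave fewer calls in some settings and more in others.

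Same-numbered libraries did not deviate together, so pairing has no support in the data, and a fit with a replicate block gave 1939 and 1546 in BMS-986158, 521 and 440 in vehicle, 739 and 536 for their difference, 612 and 181 in CHLA10, and 650 and 842 between lines. For the 108 named genes, 1795 of 1831 values under alternatives kept their side of the threshold, 27 lost the call, 9 gained it and 0 turned round among calls. Those that lost it were DSG2, BHLHE22, CDH12, ATF4, ANKRD1, ITGB8 and EFR3B, and those that gained it TFPI2, ECHDC2 and MYC. Genes not called could change direction. Without 20-day replicate 3, the log2 change of IGF1 went from 0.356 to -0.037 and that of IGF1R from 0.181 to -0.231. List counts moved too. In a fit of the 6 libraries alone 7 EWS::FLI1-activated targets fell (12 in the full fit), and those that rose were 8 matrix proteases and inhibitors (13), 2 hypoxia genes (8), 6 chaperones (11), 4 NRF2 targets (8), 3 MYC network genes (6), 3 BCL2 family genes (5), 2 NF-kB genes (5), 0 class I genes (3) and 4 smooth muscle genes (8). With library size alone 5 G1/S and 5 G2/M genes fell (2 each) and 3 cholesterol genes rose (6). With limma-voom 5 TGF-beta and BMP genes rose (9), and with DESeq2 6 mitochondrially encoded genes fell (2). Depth limits the genes under about 1 CPM, where a 3-day library holds few reads.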

Other observations

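Letters of other motifs in the same promoter windows were counted on both strands, as a description. The E-box CACGTG, which MYC and MAX bind, was in 7 of 13 HOX windows (53.8%), in 12.5% of windows of genes that fell at least 2-fold, in 6.75% of those that rose at least 2-fold and in 9.72% of all windows. TEAD letters were in 6 of the same 13 HOX windows (46.2%), so they are not particular to the YAP list. The AP-1 site TGANTCA was in 8.19% of windows of genes that rose at least 2-fold, 6% of those that fell at least 2-fold and 4.7% of all. The ETS core CCGGAA, which FLI1 can bind, was in 11.3% of windows of genes that rose at least 2-fold and 11% of those that fell at least 2-fold, against 27.3% of all, and in 4 of 26 activated targets (15.4%). The HIF core ACGTG, which overlaps the E-box, was in 19.3%, 24% and 25.7% of these sets.

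In CHLA10, 8 of 37 receptor tyrosine kinases rose (5 to 9 when 1 CHLA10 library was left out), 9 of 31 axon guidance genes (3 to 10), 7 of 30 neuronal genes (5 to 8) and 7 of 17 class I antigen presentation genes (5 to 7), beside 3.89% of all genes there. In A673, 7, 7, 5 and 3 members of these lists rose, beside 11.3% of all genes. The test of A673 minus CHLA10 called 6, 6 and 8 members of the first 3 lists lower and 3, 2 and 3 higher. Over all genes it called 4.83% lower and 3.6% higher. Of collagens 0 of 29 rose in CHLA10 (0 to 3 with 1 library left out), of YAP/TAZ-TEAD targets 3 of 25 (0 to 4), and of HOX genes 4 of 26 (1 to 4), with 0 that fell. Between 3 and 20 days in A673 vehicle, 3.02% of all genes rose and 3.08% fell. Of 30 genes of the MYC network and targets 12 rose and 2 fell there, and 6 of 22 p53 targets fell. These counts moved both ways with single libraries. Without 20-day replicate 1, 3-day replicate 1 or 3-day replicate 2 of the vehicle, 0 MYC list genes rose and 0 p53 targets fell, as in a fit of the 6 libraries alone. Without 3-day vehicle replicate 3, 17 MYC list genes rose and 3 fell, and 9 p53 targets fell and 2 rose.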
